A study of Eurytemora affinis with 15 samples.

Results

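The lower concentration of sediment elutriate from Tancarville, 350 mg/L, was compared with water alone in adult male Eurytemora affinis, and a pair of genes fell and 1 gene rose among 17839 genes with enough reads to follow. LOC111712699 fell to 0.176 of its control level, LOC111712470 fell to 0.468 of it, and LOC111708389 rose 1.61-fold. Over the 17839 genes the median log2 difference was -0.01. For 83.0% of them, LOC111708389 included, the 95% interval of the difference lay inside a 2-fold change in either direction. For 10062 genes it lay inside a 1.5-fold change, so smaller differences are not excluded. The genes followed are those with a normalised read count of at least 10 in at least 3 of the 6 libraries of these groups. They were 17839 of the 23728 genes in the deposited table, or 75.2%, and took from 99.0% to 99.9% of the reads of each of the 6 libraries.

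Eurytemora affinis is a small calanoid copepod that lives in the brackish zone of estuaries, where it grazes on algae and particles and is eaten by fish larvae and shrimps. An elutriate is the water phase left after sediment has been mixed with water, and it carries dissolved matter, fine particles and whatever contaminants these release. Such animals swim and feed among suspended sediment, and the comparison asks whether a sediment of this estuary alters their gene expression.

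The copepods were collected in the Seine estuary, freed of young stages by sieving, kept at 15 psu and 15 °C with algae as food, and then held for 72 h in water alone (Control) or in elutriate. RNA came from pools of 30 whole males, with 3 pools per group, and each pool gave 1 library. The series also has a group at the higher Tancarville concentration, 2500 mg/L, and 2 groups in elutriate from Fatouville at these same concentrations, which are used here only for comparison. A pool averages its males, so the spread between pools understates the spread between animals, and a change in whole animals cannot be assigned to a tissue: fewer cells of a type and less RNA per cell cannot be told apart. The identifiers are not paired with gene names in the sources used here, so the functions of the genes are not described, and markers of eggs, females or moulting animals were not looked up.

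Each of the 6 libraries held between 15.65 and 17.11 M reads in genes, and a gene among the 17839 had a median of 203.5 reads per library. Of the 17839 genes, 16647 reached a normalised count of 10 in all 6 libraries. Another 27 reached it in the 3 exposed pools and in no control, and 17 in the 3 controls and in no exposed pool, so these 44 passed the minimum only through the group where they were high. At the edge of the rule, 168 genes had a third-highest value between 10 and 11, and 210 genes left out had one between 9 and 10. The 31 tRNA identifiers in the table were all left out, with no value above 1.97 in these libraries.

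Distances between pools of the same group overlapped those between the groups, with root mean square log2 differences of 0.40 to 0.63 within and 0.40 to 0.75 between. Over the 17839 genes this distance was 0.40 between Control 1 and Control 2, and 0.51 and 0.53 between each of them and Control 3. Among the exposed pools it was 0.48 between pools 2 and 3, 0.56 between pools 1 and 2, and 0.63 between pools 1 and 3. Exposed pool 3 lay nearer to Control 1 and Control 2, at 0.40 from each, than to either pool of its own group. Exposed pool 2 lay at 0.47 and 0.44 from the same controls. The farthest pair was exposed pool 1 and Control 3, at 0.75, and these 2 libraries stood apart within their groups. The share of the variance among these libraries that lay between the groups was 24.0% (n = 3 per group, exact permutation p = 0.2, where 0.1 is the smallest p that 10 splits allow).

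**Figure D1:**
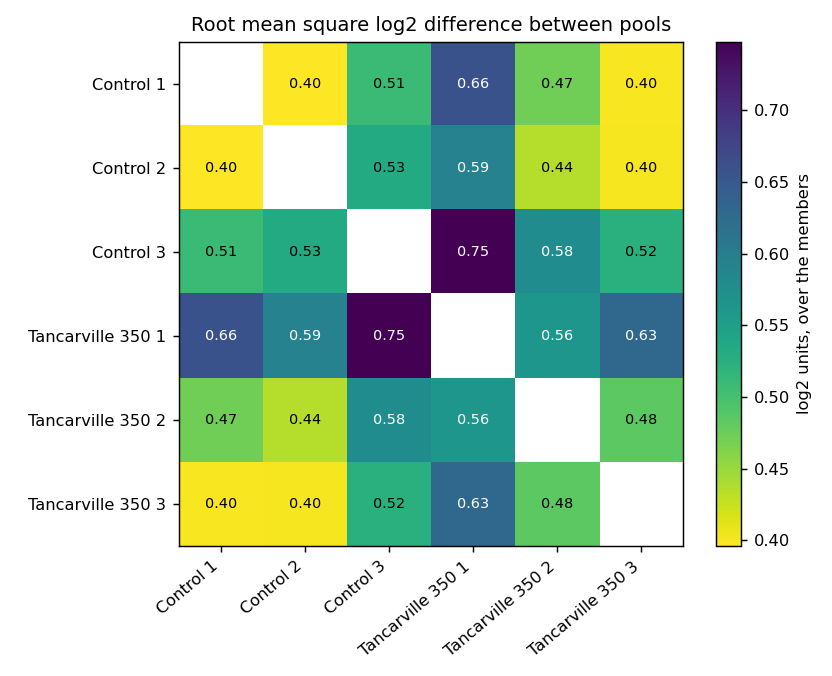
Root mean square log2 difference between each pair of the 6 pools, over the 17839 genes, in log2 units (colour and printed value). Exposed pool 3 is at 0.40 from Control 1 and Control 2, and the largest value, 0.75, is between exposed pool 1 and Control 3.

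The largest change among the called genes was that of LOC111712699. Its normalised counts were 3348, 3434 and 3044 in Control 1, 2 and 3, and 556, 591 and 576 in exposed pools 1, 2 and 3. Every exposed pool was low, and the lowest control was 5.15 times the highest exposed pool. The exposed pools were close together, at 574 ± 17.9 (SD, n = 3) against 3275 ± 205 (SD, n = 3) in Control. The log2 difference was -2.51 (SE 0.27, 95% interval -3.09 to -1.93, limma adjusted p = 0.00765), so the interval lay wholly beyond a 2-fold fall.

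LOC111712470 also fell. It stood at 1336, 1489 and 1549 normalised counts in Control 1, 2 and 3 and at 729, 711 and 608 in exposed pools 1, 2 and 3. The groups did not overlap, with the lowest control 1.83 times the highest exposed pool. Group means were 1458 ± 109.5 and 683 ± 65.4 (SD, n = 3 each), and the log2 difference was -1.10 (SE 0.14, 95% interval -1.39 to -0.80, limma adjusted p = 0.00765).

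LOC111708389 was the gene that rose. Its normalised counts were 515, 574 and 559 in Control 1, 2 and 3 and 977, 838 and 851 in exposed pools 1, 2 and 3. All exposed pools were above all controls, the lowest exposed pool at 1.46 times the highest control, and pool 1 was the highest of the exposed pools. Means of 549 ± 30.4 and 889 ± 76.6 (SD, n = 3 each) gave a log2 difference of 0.69 (SE 0.10, 95% interval 0.48 to 0.90, limma adjusted p = 0.0236).

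A second gene with higher values, LOC111709763, had the next smallest p among higher genes and was not called. It was at 1096, 1424 and 1586 in Control 1, 2 and 3 and at 3148, 2754 and 2637 in exposed pools 1, 2 and 3. The groups again did not overlap, and the lowest exposed pool was 1.66 times the highest control. The means were 1369 ± 249 and 2846 ± 268 (SD, n = 3 each), with a log2 difference of 1.07 (SE 0.22, 95% interval 0.60 to 1.53, limma adjusted p = 0.71). DESeq2 on the same reads gave it an adjusted p of 0.00185. Limma fitted to only the 2 groups compared gave an adjusted p of 0.0486. Of the 23 alternatives, 3 called this gene and 20 did not.

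**Figure D2:**
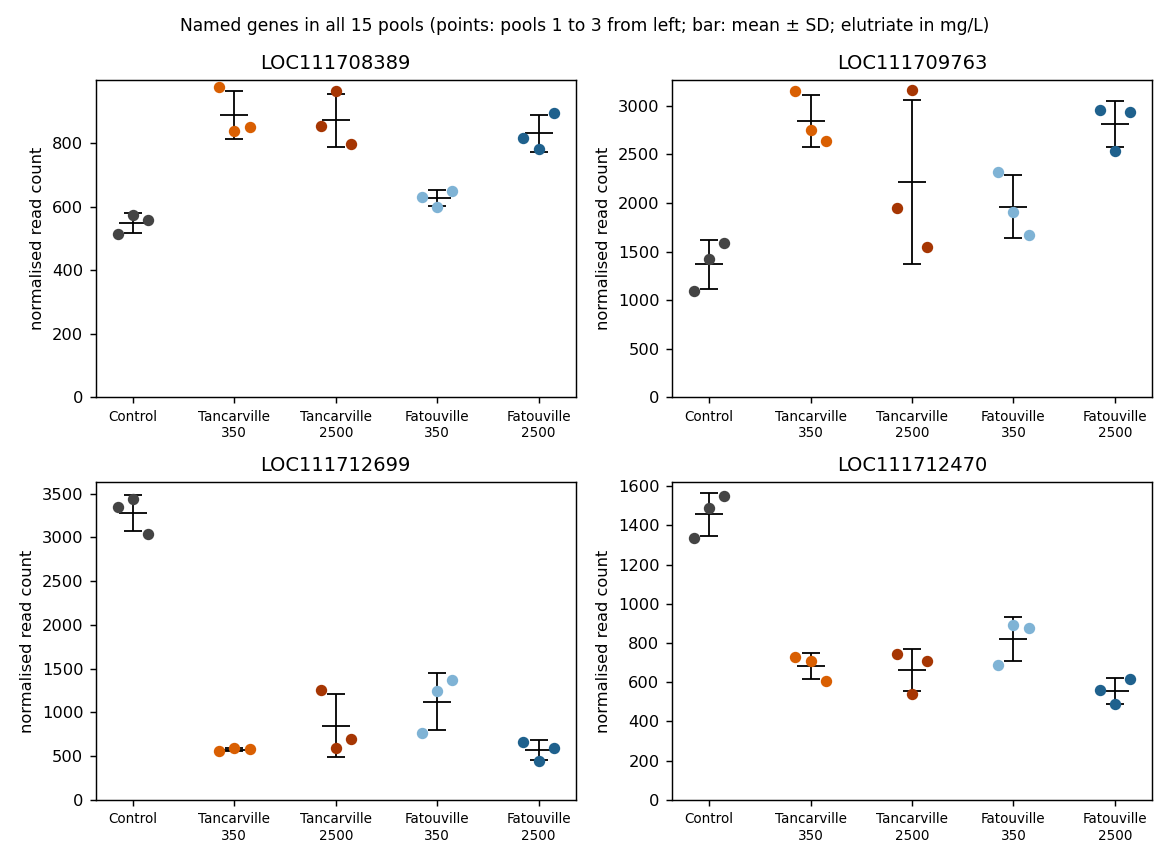
Normalised read counts of the 4 named genes in all 15 pools, with points for pools 1 to 3 of each group and bars for the mean ± SD (n = 3). In LOC111712699 and LOC111712470 all 3 Tancarville 350 mg/L pools lie below all 3 controls, and in LOC111708389 and LOC111709763 all 3 lie above.

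These 3 called genes were 0.0159% of the 18921 genes tested over the whole series by limma, 1 higher (0.00529%) and 2 lower (0.0106%), and all 3 were among the 17839. The edgeR quasi-likelihood test called 3 genes as well, 0.0159% of those tested, and they were the same 3. DESeq2 called 19 genes, or 0.098% of the 19382 to which it gave an adjusted p, 9 of them higher and 10 lower. Of its 19 calls, 14 were among the 17839 genes, 6 higher and 8 lower. The 8 lower genes were all without overlap between the groups, with DESeq2 log2 differences of -2.51 to -0.71 and means of 157 to 2538 normalised counts over the 6 libraries. Of the 6 higher genes, 5 were without overlap. Their DESeq2 log2 differences ran from 0.36 to 7.58 and their means from 518 to 5764. The unadjusted limma p was under 0.05 for 4 of these 6 higher genes and for all 8 lower genes. Over the 17839 genes, 11.9% were without overlap and 3.85% had an unadjusted limma p under 0.05. DESeq2 chose its genes by the difference between the same pools, so nothing is read from their overlap or limma p. The other 5 of the 19 calls were genes with a value of 10 or more in at most 2 of the 6 libraries.

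The call of each of the 3 genes by limma was lost whenever 1 of the 6 libraries was left out, while the size of the change stayed. Without each library in turn, the log2 difference of LOC111712699 ranged from -2.56 to -2.47 and its limma adjusted p from 0.0507 to 0.0924. For LOC111712470 the ranges were -1.16 to -1.01 and, in adjusted p by limma, 0.0507 to 0.0924. For LOC111708389 they were 0.62 to 0.73 and, in adjusted p by limma, 0.0791 to 0.269, the highest without exposed pool 1.

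**Figure D3:**
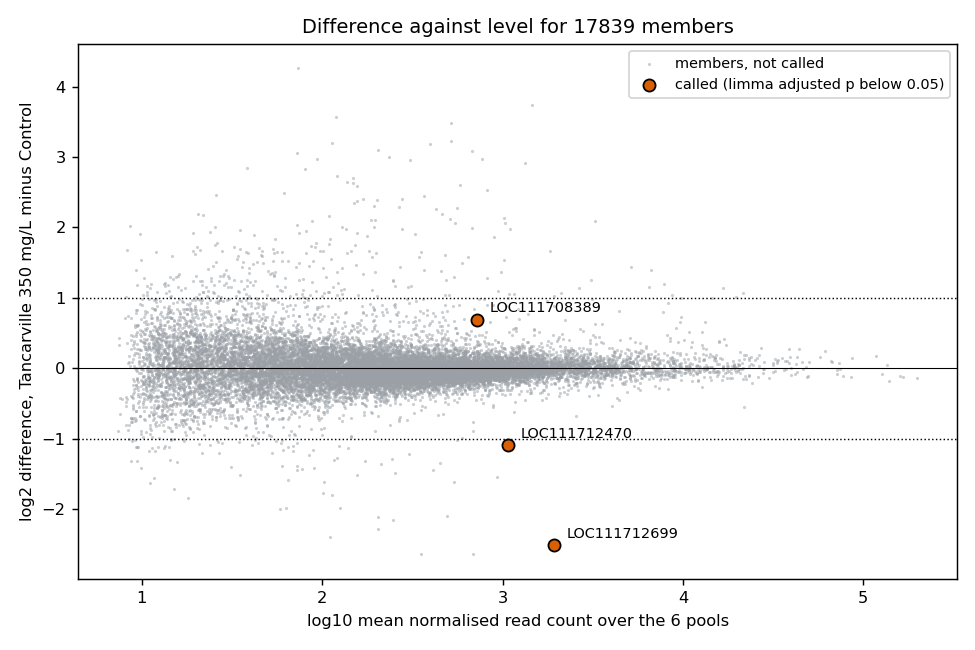
The log2 difference between Tancarville 350 mg/L and Control against the log10 mean normalised read count for the 17839 genes (grey points), with the 3 called genes in orange and dotted lines at a 2-fold change. The called genes lie at log2 differences of -2.51, -1.10 and 0.69, among others with larger but more variable differences.

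The whole distribution of differences was narrow. The quartiles of the log2 difference over the 17839 genes were -0.13 and 0.13, and the central 95% lay from -0.52 to 0.79, with a longer arm on the higher side. The median half-width of a gene's 95% interval was 0.38 on the log2 scale. For 14801 genes the interval lay inside a 2-fold change either way, and for 10062 inside a 1.5-fold change either way. The bound was widest for genes with few reads. Among 3756 genes with a mean below 50 normalised counts over the 6 libraries, the interval lay inside 2-fold for 42.0%. The share was 89.8% of 5134 genes between 50 and 200 and 96.2% of 6296 genes between 200 and 1000. It was 96.8% of 2158 genes between 1000 and 5000 and 94.1% of 495 genes above. The median SD between pools was 0.18 log2 units in Control and 0.17 in the exposed group.

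Before adjustment, limma gave 687 of the 17839 genes a p under 0.05, which is 3.85% of them and 3.85% of all genes tested. Of these 687, 233 were higher and 454 lower, so 66.1% were lower. That balance moved with the scaling, and not in 1 direction. With values rescaled by TMM factors 305 were higher and 335 lower (52.3% lower). With quantile normalization 185 were higher and 438 lower (70.3% lower). Values in the exposed pools lay above every control for 947 genes, 5.31% of the 17839 beside 5.46% of all genes tested, and below every control for 1181 genes, 6.62% beside 6.44%. The 947 include the 27 genes, and the 1181 the 17 genes, that passed the minimum only through the group where they were high. The median log2 difference was 0.33 in the first set and -0.28 in the second. Both shares lay near those of all genes tested, and the sets were chosen by the order of the same pools. Nothing is read from them about these genes. Among the 100 genes with the most reads, which took from 24.9% to 27.9% of each library, 1 had an unadjusted limma p under 0.05 and 11 were without overlap between the groups, beside 11.9% of the 17839 genes in either direction.

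Genes with larger differences of the mean were counted next, and the counts depended on which pools were included. In the exposed pools the mean of 280 of the 17839 genes was at least 2-fold above Control, 1.57%, beside 2.72% of all genes tested. The mean of 86 genes was at least 2-fold below, 0.482%, beside 1.29%. Of the 280 higher genes, 211 had their highest value in exposed pool 1, 49 in pool 2 and 19 in pool 3. With exposed pool 1 left out, 131 genes were at least 2-fold higher, 101 of the 280 among them, and with exposed pool 3 left out 517 were, 270 of the 280 among them. Of the 86 lower genes, 65 had their highest value in Control 3, and with Control 3 left out 47 genes were at least 2-fold lower, 24 of the 86 among them. The lower count rose to 135 without Control 1 and to 150 without Control 2. The groups did not overlap in 84 of the 280 and in 38 of the 86, beside 11.9% of the 17839 genes. Both sets were chosen by the size of the same difference, so nothing is read from these shares. The 44 genes that passed the minimum only through 1 group were not taken out before these counts.

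Set against the control mean pool by pool, exposed pool 1 had 664 genes at least 2-fold higher and 221 at least 2-fold lower. Exposed pool 2 had 332 higher and 182 lower, and exposed pool 3 had 139 higher and 216 lower. A control pool set against the mean of the other 2 controls gave counts of the same order. Control 1 had 159 higher and 250 lower genes, Control 2 had 260 and 215, and Control 3 had 298 and 287. Exposed pools 1 and 2 had more genes 2-fold higher than any control, pool 2 by a small margin, and exposed pool 3 had fewer than any control. An exposed pool was set against the mean of 3 controls and a control pool against that of 2. The references thus differ, and nothing is read from small gaps between these counts.

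**Figure D4:**
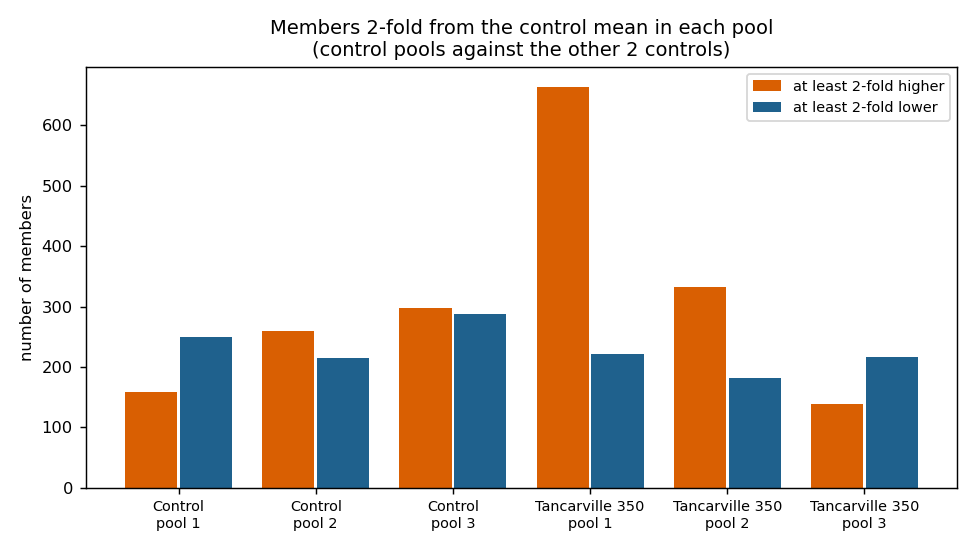
Number of the 17839 genes at least 2-fold higher (orange) or lower (blue) than the mean of the 3 controls in each exposed pool, and than the mean of the other 2 controls in each control pool. Exposed pool 1 has 664 higher genes, and the other 5 pools have 139 to 332.

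The levels of these 2 gene sets were followed over all pools, without a test because the sets were chosen on the same libraries. The median normalised count of the 280 higher genes was 17.8, 25.3 and 17.0 in Control 1, 2 and 3, and 174, 47.0 and 25.6 in exposed pools 1, 2 and 3. Exposed pool 3 was thus level with Control 2. The same 280 genes were at 38.1, 142 and 344 in pools 1, 2 and 3 of Tancarville 2500 mg/L and at 30.9, 75.3 and 18.3 in those of Fatouville 350 mg/L. They were at 427, 89.0 and 90.7 in those of Fatouville 2500 mg/L, so that wide gaps between pools of 1 group occurred in every exposed group. All of these groups are set against the same 3 controls.

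The 86 lower genes had median normalised counts of 22.5, 22.5 and 149 in Control 1, 2 and 3. They were at 14.5, 19.4 and 17.7 in exposed pools 1, 2 and 3. These values were below all 3 controls, with a much wider gap to Control 3 than to Control 1 and Control 2. In Tancarville 2500 mg/L they were at 20.1, 23.3 and 73.3, and in Fatouville 350 mg/L at 21.5, 39.0 and 18.8. In Fatouville 2500 mg/L they were at 103, 245 and 194, with pool 1 below Control 3 and pools 2 and 3 above it.

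The deposited Cook's distances, a score of how far 1 library moves the fit of a gene, were most often highest in the same pair of libraries. Among the 6 libraries the highest distance was that of Control 3 for 23.5% of the 17839 genes and that of exposed pool 1 for 18.6%, against 12.7% to 16.7% for each of the other 4.

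**Figure D5:**
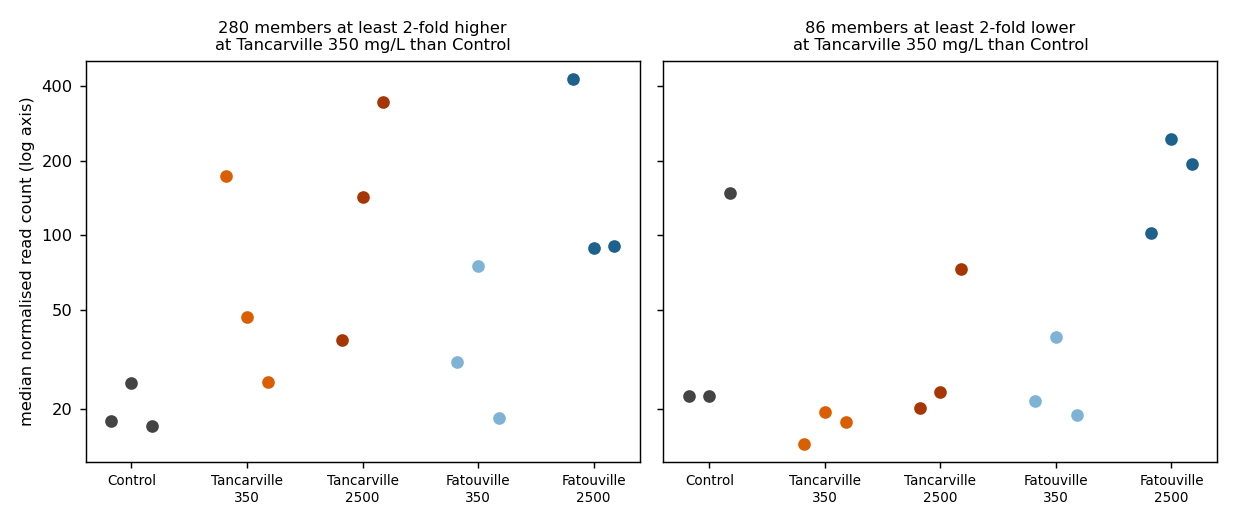
Median normalised read count (log axis) in each of the 15 pools for the 280 genes at least 2-fold higher (left) and the 86 genes at least 2-fold lower (right) at Tancarville 350 mg/L than in Control. On the left exposed pool 1 stands at 174 and pool 3 at 25.6, and on the right Control 3 stands at 149 against 22.5 in both other controls.

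The named genes were then followed at the other concentration of the same site. In pools 1, 2 and 3 of Tancarville 2500 mg/L, LOC111712699 was at 1256, 589 and 700.0 normalised counts, so pool 1 lay above all Tancarville 350 mg/L pools and pool 2 among them. The mean of 848 ± 357 (SD, n = 3) compared with 574 ± 17.9, and the difference, lower minus higher concentration, was -0.48 on the log2 scale (95% interval -1.07 to 0.10, limma adjusted p = 0.857). LOC111712470, at 663 ± 109 (SD, n = 3), differed by 0.05 (95% interval -0.25 to 0.35, limma adjusted p = 0.974). LOC111708389, at 872 ± 84.2 (SD, n = 3), differed by 0.03 (95% interval -0.18 to 0.24, limma adjusted p = 0.983). For both of these genes the interval lay inside a 1.5-fold difference between 350 and 2500 mg/L. The named genes were chosen on the same Tancarville 350 mg/L pools, so these intervals set no bound on the difference. LOC111709763 was at 1944, 3164 and 1547, a wider spread, and differed by 0.42 (95% interval -0.04 to 0.89, limma adjusted p = 0.857).

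Over all genes tested, limma called 0 between the concentrations of Tancarville elutriate (0%), as did edgeR, and DESeq2 called 2. Before adjustment, 1086 genes had a limma p under 0.05, 5.74% of those tested. Among the 17839 genes, 58 were at least 2-fold higher and 234 at least 2-fold lower at 350 than at 2500 mg/L. For 82.7% the 95% interval of the difference lay inside 2-fold either way. The 17839 genes were chosen on Tancarville 350 mg/L and Control, whereas 18090 genes meet the same rule in the 2 Tancarville groups. The 2-fold genes were not counted over all genes tested, nor with single pools left out.

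At the same concentration, the pools exposed to Fatouville elutriate had mean values between those of the controls and the Tancarville pools for the called genes. These genes were chosen by the difference between Tancarville 350 mg/L and Control in the same pools, so nothing is read from this order. LOC111712699 was at 759, 1240 and 1371 normalised counts in pools 1, 2 and 3 of Fatouville 350 mg/L, all above the 556 to 591 of the Tancarville pools and below the controls. The difference, Tancarville minus Fatouville, was -0.92 on the log2 scale (95% interval -1.50 to -0.34, limma adjusted p = 0.982). LOC111708389 was at 631, 600.3 and 651, below the 838 to 977 of the Tancarville pools and above the controls, and differed by 0.50 (95% interval 0.29 to 0.71, limma adjusted p = 0.862). LOC111712470 was at 689, 892 and 878, and pool 1 lay among the Tancarville pools, with a difference of -0.26 (95% interval -0.55 to 0.04, limma adjusted p = 0.982). LOC111709763 was at 2314, 1907 and 1667, all below the Tancarville pools, with a difference of 0.54 (95% interval 0.08 to 1.01, limma adjusted p = 0.982). The intervals are those of single genes, chosen on the same Tancarville pools, and no difference between the sites passed the adjusted threshold. At Fatouville 2500 mg/L, LOC111712699 was at 564 ± 115 and LOC111712470 at 555 ± 64.6 (SD, n = 3 each). There LOC111708389 was at 831 ± 57.9 and LOC111709763 at 2811 ± 239 (SD, n = 3 each). The Tancarville 350 mg/L means, in the same order of genes, were 574, 683, 889 and 2846. These 2 groups were not tested against each other.

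Limma called 0 of the genes tested between the sites at 350 mg/L (0%), as did edgeR, and DESeq2 called 5. Before adjustment, 880 genes had a limma p under 0.05, 4.65% of those tested. Among the 17839 genes, 154 were at least 2-fold higher and 42 at least 2-fold lower with Tancarville than with Fatouville elutriate. In these 2 groups 17930 genes meet the same rule. Here too the 2-fold genes were not counted over all genes tested, nor with single pools left out.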

How the data were processed

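RNA-seq libraries of whole males were analysed from 1 deposited table of 23728 genes and 15 libraries. The deposited values are a signal: the authors divided the read counts of genes by a size factor for each library. In every library 100% of values above 0 were whole multiples of a single step (a read's worth; tolerance 1e-06), so whole reads were recovered. The table also holds a score the authors deposited per gene and library, Cook's distance. STAR, Salmon, HTSeq 0.11.2 and DESeq2 are named, without roles, in the submitters' processing notes. Genome build, annotation and strand setting were not given in the sources used here. Reads of near-identical or overlapping genes may have been assigned to either.

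Differences were tested with limma 3.58.1 under R 4.3.3, on log2(value + 1), a scale on which the fold changes of weakly expressed genes come out too small. A single model with the 5 groups as terms, moderated robustly and with an intensity trend, was fitted to the 15 libraries, for 18921 genes that reached 10 in 3 or more of them. A gene was called at a 2-sided Benjamini-Hochberg adjusted p below 0.05. The test was also run on simulated counts, drawn independently for each gene and library. They hold no shift shared by many genes of 1 pool, so they cannot show how the test handles one. The alternatives were edgeR 4.0.16 and DESeq2 1.42.0 on the recovered reads, other pseudocounts, filters, scalings and fits, and libraries left out.

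P-values measure the spread between pools, which the labels call biological replicates. No batch or date is given in the labels used here. Replicates were not copies of each other: the chi-square of their counts, divided by its degrees of freedom, was 12.1 or more for every pair. The labels number the pools 1 to 3 in each group. Deviations from the group means correlated, for pools of the same number, at -0.000783, -0.163 and -0.0263 between Tancarville 350 mg/L and Control and at -0.531, -0.127 and -0.436 between the Tancarville concentrations, so these numbers were not taken as pairs. They correlated at 0.103, 0.316 and 0.359 between Tancarville and Fatouville at 350 mg/L. The labels do not name pairs, and the main fit used no pairing here either. Replicate numbers entered as a block in alternative fits only.

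Named genes were the called genes of the comparison with Control, completed to at most 2 higher and 2 lower by the smallest p, because no table pairs the identifiers with names; the 25 lists of product names prepared for this work matched 0 identifiers. The genes, lists and tests were chosen with earlier results of these data known.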

Additional observations from a re-analysis of the deposited data

How the results depend on the processing

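Against Control, 3 genes were called by limma, and 2 to 4 under 11 of the 14 alternatives that left out no library, edgeR among them. The exceptions were 1 gene without the intensity trend, 6 in a fit of only the 2 groups compared and 19 by DESeq2, and the cause was not tested. The count was 0 to 0 with any 1 of the 6 libraries left out, with 424 to 1017 genes at an unadjusted limma p under 0.05. It was 0 without Control 3 and Tancarville 350 mg/L pool 1 (283 at an unadjusted p under 0.05), and 0 without Control 3, Fatouville 350 mg/L pool 2 and Tancarville 2500 mg/L pool 3 (703). It was 5 without the 3 libraries farthest from their group centres. These last 3 choices were made after the data were seen. With the replicate block over all libraries 2 genes were called, both among the 3, and LOC111708389 lost its call (limma adjusted p = 0.111). In the blocked fit of only the 2 groups 2 genes were called, 1 of them among the 3, and LOC111712470 lost its call too (limma adjusted p = 0.0675). Of 23 alternatives, 8 lost the call of LOC111712699, 10 that of LOC111712470 and 12 that of LOC111708389, and 3 gave one to LOC111709763; none of the 4 changed direction. Between the Tancarville concentrations the count was 0 except 2 by DESeq2. Between the sites at 350 mg/L it was 0, also with the replicate block, except 5 by DESeq2 and 0 to 1 with a library left out. The variance share of group was 22.5% to 24.1% under other settings and 22.9% to 37.0% with a library left out. Genes with a mean below 50 normalised counts had the widest 95% intervals, with a median half-width of 0.80 log2 units.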
